A study of Homo sapiens with 9 samples.

Results

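CPA4 encodes carboxypeptidase A4 and FST encodes follistatin, and both are described here in Caki-1 cells after knockdown of TAF1D. They are 2 of the 6819 genes in the deposited expression table. They were taken by gene symbol, which found 9 of the 20909 deposited transcripts, 2 for CPA4 and 7 for FST. Each gene was also summed over its listed transcripts. RefSeq (build GRCh38.p14) gives 3 transcripts for CPA4, 2 of them listed, and 10 for FST, 6 of them listed. A gene sum, a percent of control or a share below therefore covers listed transcripts only, and may differ from the whole gene. The pair was chosen by its fold changes between knockdown and control cells in an earlier account of the same values, so that difference is given below as a description with no test.

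Caki-1 is a human line from a clear cell renal carcinoma. Total RNA was sequenced in 9 libraries, with 3 of TAF1D knockdown cells named SH1, 3 of TAF1D knockdown cells named SH3 and 3 controls of genotype WT. The knockdown was made with short hairpin RNA. The labels give no time point and leave the meaning of the names SH1 and SH3 unexplained. Whether the libraries of a group came from separate cultures is not stated either, so a p-value reflects only how these samples scatter, and that scatter may be technical. TAF1D itself was not analysed here, so its own knockdown has no check.

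Carboxypeptidase A4 is a zinc metalloenzyme that is secreted as a proenzyme and removes hydrophobic residues from the carboxyl end of peptides. Follistatin is a secreted glycoprotein that binds activins with high affinity, and also myostatin and some bone morphogenetic proteins, and keeps them from their receptors. FST transcripts differ at their 3′ end, and the longer protein ends in an acidic tail that the shorter one lacks. In the kidney, activin and follistatin are known as opposed regulators of tubule branching and repair.

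The start regions of both genes are shown because the text compares genes that were lower together. Each is the 300 bases around the start of the gene in RefSeq (build GRCh38.p14, plus strand), which is chr7:130292911-130293210 for CPA4 and chr5:53480379-53480678 for FST. Capitals mark matches to 5 short motifs that were searched on both strands, and positions are counted from the start site, negative before it.
CPA4: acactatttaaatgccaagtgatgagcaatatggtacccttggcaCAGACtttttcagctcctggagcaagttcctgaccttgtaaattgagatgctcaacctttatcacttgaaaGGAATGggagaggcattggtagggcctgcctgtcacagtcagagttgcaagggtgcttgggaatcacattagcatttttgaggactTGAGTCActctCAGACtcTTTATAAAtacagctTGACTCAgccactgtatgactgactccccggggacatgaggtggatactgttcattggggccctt
FST: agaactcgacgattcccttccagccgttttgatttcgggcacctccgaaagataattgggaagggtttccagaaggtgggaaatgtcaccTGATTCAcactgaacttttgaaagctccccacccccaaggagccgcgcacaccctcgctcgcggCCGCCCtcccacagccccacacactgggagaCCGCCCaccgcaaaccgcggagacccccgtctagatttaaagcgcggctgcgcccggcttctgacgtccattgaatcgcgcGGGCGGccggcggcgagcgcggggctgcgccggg
The CPA4 region held a TATA box (TATAAA) at -28, with an overlapping reverse match at -30, and TATAAA occurred in 11.5% of all 35116 promoters in the RefSeq table. It also held matches to the AP-1 motif TGANTCA at -48 and -15, a motif found in 7.71% of promoters. A match to the TEAD motif GGAATG lay at -134 (14.03% of promoters), and matches to the SMAD box CAGAC lay at -205 and -37 (45.3% of promoters). The FST region held 1 match to the AP-1 motif, at -160, and 3 to the GC box GGGCGG, at -96, -65 and 17 (45.0% of promoters). The AP-1 motif, searched with any base (N) in its middle, was thus the only one of the 5 with a match in both regions. The matches read TGAGTCA and TGACTCA in CPA4 and TGATTCA in FST, so the shared match depends on that open base. In base composition the regions lay on either side of the typical promoter. The CPA4 region had 46.3% G and C and 1 CG dinucleotide, and the FST region had 63.7% and 32, against medians of 58.7% and 14 over all promoters. A match describes letters only, and binding was not measured.

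The deposited table is a selection. Every listed transcript differed by at least 2-fold between SH1 1 and control 1 in estimated count, against 51.5% to 64.9% of transcripts in the other 35 pairs of libraries, so values of these 2 libraries were picked to lie apart. The summed estimated count per library was 1358215 to 1596467, which is 4.20% to 5.18% of each library's TPM and not its depth. Marker genes could be read only in part. Of 9 markers of renal carcinoma 3 were listed, and PAX8, a transcription factor of the renal epithelium, averaged 5.42 ± 1.13 FPKM in SH1, 5.30 ± 4.05 FPKM in SH3 and 2.26 ± 0.82 FPKM in control cells (SD, n = 3 each). VEGFA, the angiogenic growth factor, averaged 8.10 ± 1.83 FPKM in SH1, 12.2 ± 0.17 FPKM in SH3 and 6.44 ± 0.70 FPKM in control cells, and its difference in SH3 passed with DESeq2 (adjusted p = 0.00636) and not with edgeR (0.236). LOX, lysyl oxidase, averaged 6.85 ± 0.66 FPKM in SH1, 19.3 ± 1.11 FPKM in SH3 and 13.6 ± 3.31 FPKM in control cells. It was lower in SH1 (edgeR adjusted p = 0.0125) and higher in SH3 than in SH1 (0.00344), and the call in SH1 was lost without any 1 of the SH1 libraries (up to 0.0595), without SH1 1 and control 1 together, and with only the groups compared (0.0954). KRT19, the 1 listed of 6 epithelial markers, averaged 18.2 ± 3.15 FPKM in SH1, 62.5 ± 3.55 FPKM in SH3 and 80.7 ± 9.81 FPKM in control cells, lower in SH1 (edgeR adjusted p = 0.00134) and higher in SH3 than in SH1 (0.00344). The part of these markers in the results below was not tested. PDGFRB, the 1 listed of 6 fibroblast markers, averaged 0.26 to 0.30 FPKM. Markers of renal tubule (8), endothelium (5) and blood cells (6) were not analysed here.

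CPA4 transcript was much lower in both knockdown groups than in control cells. Its summed level was 3.0, 2.93 and 2.64 FPKM in SH1 libraries 1 to 3, 1.57, 1.37 and 1.56 FPKM in SH3 libraries, and 15.8, 17.1 and 16.6 FPKM in control libraries. The groups did not overlap, and they stood in the order SH3, SH1 and control, lowest first. The mean level was 2.86 ± 0.19 FPKM in SH1, 1.5 ± 0.11 FPKM in SH3 and 16.5 ± 0.63 FPKM in control cells (SD, n = 3 each), which makes SH1 17.3% and SH3 9.09% of the control mean. The estimated count behind these levels was 74.6 to 933 per library, where counting error alone is 11.6% to 3.27%. In bulk RNA, fewer cells that express a gene and less RNA per cell cannot be told apart.

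The log2 fold change of the CPA4 sum in the edgeR quasi-likelihood fit over all 9 libraries was -2.71 ± 0.18 (SE) in SH1 and -3.55 ± 0.19 in SH3, and -3.13 ± 0.15 for the average of both against control. Of all 6398 gene sums tested, 2.14% passed the threshold (adjusted p of 0.05) in SH1, 0.406% in SH3 and 1.11% in the average. CPA4 passed it in all 3 comparisons, from which nothing is read since they chose the gene. Without SH1 1 and control 1 the values were -2.74 in SH1, -3.60 in SH3 and -3.17 in the average. CPA4 ranked 149 from the lowest fold change in the average. Sums with all 6 knockdown libraries below all 3 controls made up 2.25% of those tested, and the 3-step order of CPA4 with no overlap was shown by 12 sums (0.188%).

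The further step between the knockdown groups was not itself the difference that chose the pair, so a test of it is given. It uses the same SH1 and SH3 libraries as the choice did, and earlier results of these data were known. Its p-values are therefore not independent of the choice. The table itself, however, was selected in part on SH1 1, 1 of the libraries compared here. The log2 fold change of CPA4 in SH3 against SH1 was -0.84 ± 0.18 (SE from the fit), with all 3 SH3 libraries below all 3 SH1 libraries. The edgeR quasi-likelihood test gave an unadjusted p of 0.00135 and a Benjamini-Hochberg adjusted p of 0.0724 over all sums, which misses the threshold that 1.36% of sums passed. Libraries of SH3 lay below those of SH1 with no overlap in 12.6% of all sums. The DESeq2 Wald test passed it (adjusted p = 0.000106), and the adjusted p ranged from 0.000106 to 0.316 over 20 alternatives, of which DESeq2 alone was past the threshold. An exact two-sided permutation test on log2(FPKM + 1) gave p = 0.1, the smallest that 3 against 3 libraries allow. Without SH1 1 and control 1 the log2 fold change was -0.86 (adjusted p = 0.143, edgeR quasi-likelihood test).

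FST was lower in both knockdown groups as well, by a smaller factor and to about the same level in each. Its summed level was 10.6, 9.44 and 6.91 FPKM in SH1, 10.02, 11.2 and 8.68 FPKM in SH3, and 27.9, 21.2 and 22.5 FPKM in control libraries. The knockdown groups overlapped each other, and neither overlapped the controls. The mean was 8.99 ± 1.90 FPKM in SH1, 9.98 ± 1.28 FPKM in SH3 and 23.9 ± 3.55 FPKM in control cells (SD, n = 3 each), so SH1 stood at 37.7% and SH3 at 41.8% of the control mean. The highest control value belongs to control 1, 1 of the 2 libraries on which the table was selected. The count behind each value was 318 to 1245, with a counting error of 5.61% to 2.83%.

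The log2 fold change of the FST sum was -1.56 ± 0.20 (SE) in SH1, -1.33 ± 0.20 in SH3 and -1.45 ± 0.17 in the average against control. It too passed the threshold in all 3 comparisons, from which nothing is read. Its call in SH3 was near the threshold (adjusted p = 0.0438, edgeR quasi-likelihood test). That call was kept in 7 of 20 alternatives, and in 1 of the 9 fits with 1 library left out. The FST call in SH1 was kept in 19 of 20 alternatives and that in the average in 18 of 19, whereas CPA4 kept its calls against control in all. Without SH1 1 and control 1 the values were -1.56 in SH1, -1.24 in SH3 and -1.40 in the average, and none of the 3 was then past the threshold. Between the knockdown groups the FST sum differed by 0.23 ± 0.20, with an interval (2 SE each way) of -0.17 to 0.63 and an adjusted p of 0.901 (edgeR quasi-likelihood test). An exact two-sided permutation test gave p = 0.6. The difference seen in CPA4 lies outside that interval, and differences between its bounds could not be told from 0.

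**Figure D1:**
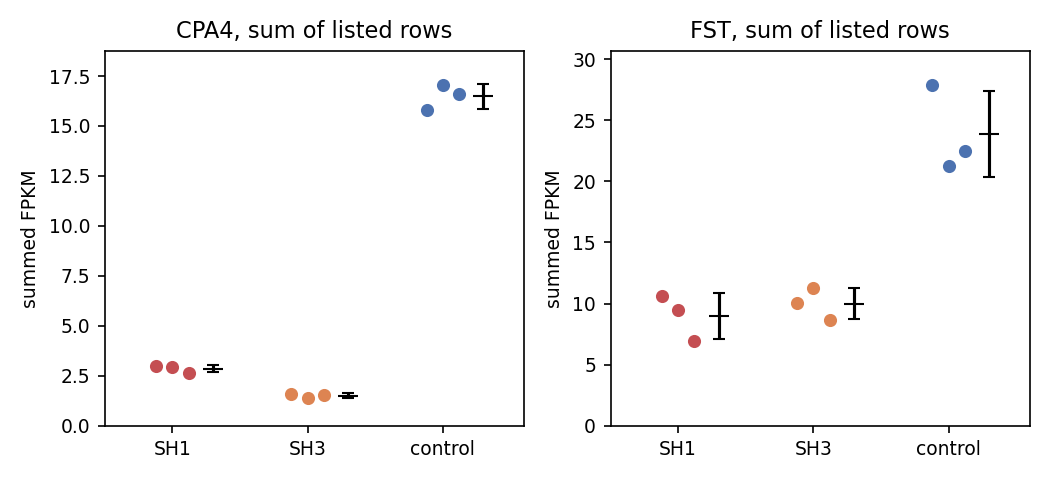
Summed FPKM of CPA4 (left) and FST (right) in each library of SH1, SH3 and control, with points for libraries and bars for mean ± SD (n = 3). CPA4 stood at 1.37 to 3.0 FPKM in the knockdown libraries and at 15.8 to 17.1 FPKM in controls, and FST at 6.91 to 11.2 FPKM in the knockdown libraries and 21.2 to 27.9 FPKM in controls.

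The balance of the 2 genes is given as a description, since it is made of the levels above. The ratio of summed FST to summed CPA4 FPKM, both per length, was 3.54, 3.22 and 2.62 in SH1, 6.38, 8.20 and 5.56 in SH3, and 1.76, 1.24 and 1.35 in control libraries. Its mean was 3.13 ± 0.47 in SH1, 6.72 ± 1.35 in SH3 and 1.45 ± 0.27 in control cells (SD, n = 3 each), and no 2 groups overlapped. The pair was chosen by its fold changes against control, so nothing is read from the difference of the ratio from control. Between SH1 and SH3 neither gene passed the threshold by edgeR. The ratio was not tested, and other pairs of genes were not compared.

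**Figure D2:**
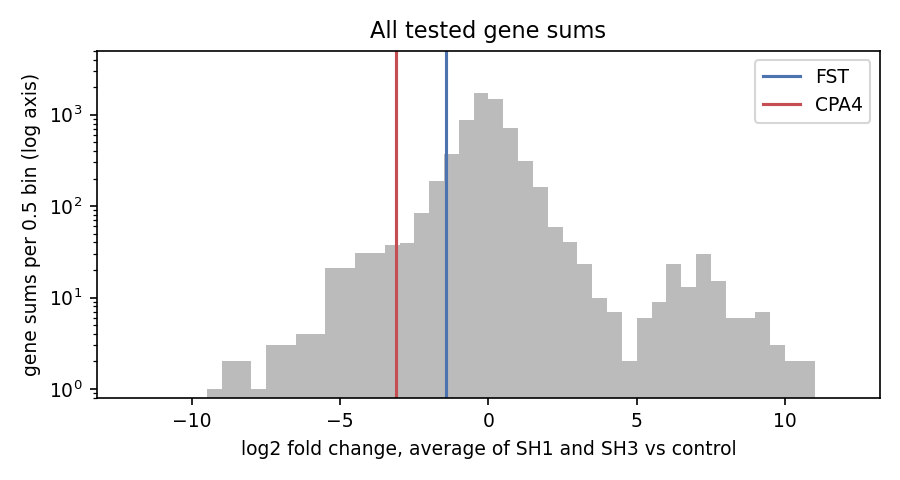
Log2 fold change of the average of SH1 and SH3 against control for all 6398 tested gene sums (grey, gene sums per bin of 0.5 on a log axis) with lines at FST (-1.45) and CPA4 (-3.13). Both lie left of 0, and the fitted fold of a sum with a group at 0 counts depends on the prior count.

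The CPA4 sum was made of 2 curated RefSeq transcripts that share nearly all their bases. NM_016352 has 11 exons and 421 codons, and NM_001163446 lacks 99 bases of it and has 388 codons (annotation GENCODE 29, GRCh38), so reads outside those bases fit both. NM_016352 stood at 2.31, 2.15 and 1.86 FPKM in SH1, 0.50, 1.37 and 1.56 FPKM in SH3 and 15.8, 17.1 and 16.2 FPKM in control libraries. Nearly all control signal was thus assigned to the longer transcript. NM_001163446 was given 0.69, 0.78 and 0.78 FPKM in SH1, 1.07, 0 and 0 FPKM in SH3, and 0, 0 and 0.39 FPKM in control libraries. Its share of the listed CPA4 count was 22.5%, 25.8% and 28.8% in SH1, 67.3%, 0% and 0% in SH3, and 0%, 0% and 2.26% in control libraries. The SH1 shares were alike and lay above all controls, while the SH3 shares ran from none to the highest of any library, and an exact two-sided permutation test of SH3 against SH1 gave p = 1.0. The sum varied less within SH3 than either transcript did.

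Of the 7 FST transcripts 2 are curated and 5 predicted, and 6 passed the filter on low counts. NM_013409, with 344 codons, carried most of the listed FST count. It stood at 7.83, 6.98 and 6.07 FPKM in SH1, 8.06, 7.74 and 7.42 FPKM in SH3 and 19.3, 14.4 and 16.3 FPKM in control libraries. Its share of the count averaged 77.3% in SH1, 77.3% in SH3 and 69.0% in control cells. NM_006350, with 317 codons and 89.6% of its bases in common with NM_013409, was at 1.07, 0 and 0.36 FPKM in SH1, 0.99, 1.42 and 0.37 FPKM in SH3 and 2.83, 3.16 and 2.28 FPKM in control libraries. The curated transcripts for the longer and the shorter protein were therefore both below all controls in all 6 knockdown libraries. Which protein the predicted transcripts encode was not analysed.

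The predicted FST transcripts were low and did not all follow the curated ones. XM_024454326 was at 0.60, 0.62 and 0 FPKM in SH1, 0, 0.29 and 0.67 FPKM in SH3 and 2.18, 3.17 and 2.06 FPKM in control libraries. XM_005248401 went the other way in SH1, with 0.76, 0.86 and 0.41 FPKM in SH1, 0, 1.26 and 0 FPKM in SH3, and 0.06, 0 and 0 FPKM in control libraries. XM_005248402 and XM_017008955 overlapped between the groups, at 0 to 0.70 FPKM in the knockdown libraries and 0.07 to 1.61 FPKM in controls. XM_011543099, which did not pass the filter, had reads in control 1 alone, with an estimated count of 48.9. Every listed transcript of both genes was selected for a difference between SH1 1 and control 1. Values of those libraries therefore had to lie apart, also in XM_005248401 and in NM_001163446 of CPA4. In all, 4 of the 8 tested transcripts of both genes had every knockdown library below every control, where 1.82% of all 17495 transcripts tested did, and nothing is read from this since the genes were chosen for that difference. By edgeR, NM_016352 alone of these transcripts passed the threshold, in the average comparison, where 0.12% of all transcripts did. No transcript of either gene passed it by edgeR in SH1 (0.131% of all), SH3 (0.0286%) or SH3 against SH1 (0.0972%). DESeq2 and both limma fits put NM_016352 past it in SH1, SH3 and the average, whereas the edgeR call in the average was lost with the replicate block, without SH1 1 and control 1 together, and in every fit that left out 1 library other than SH3 1. These calls too are on the contrasts that chose the gene, and nothing is read from them.

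**Figure D3:**
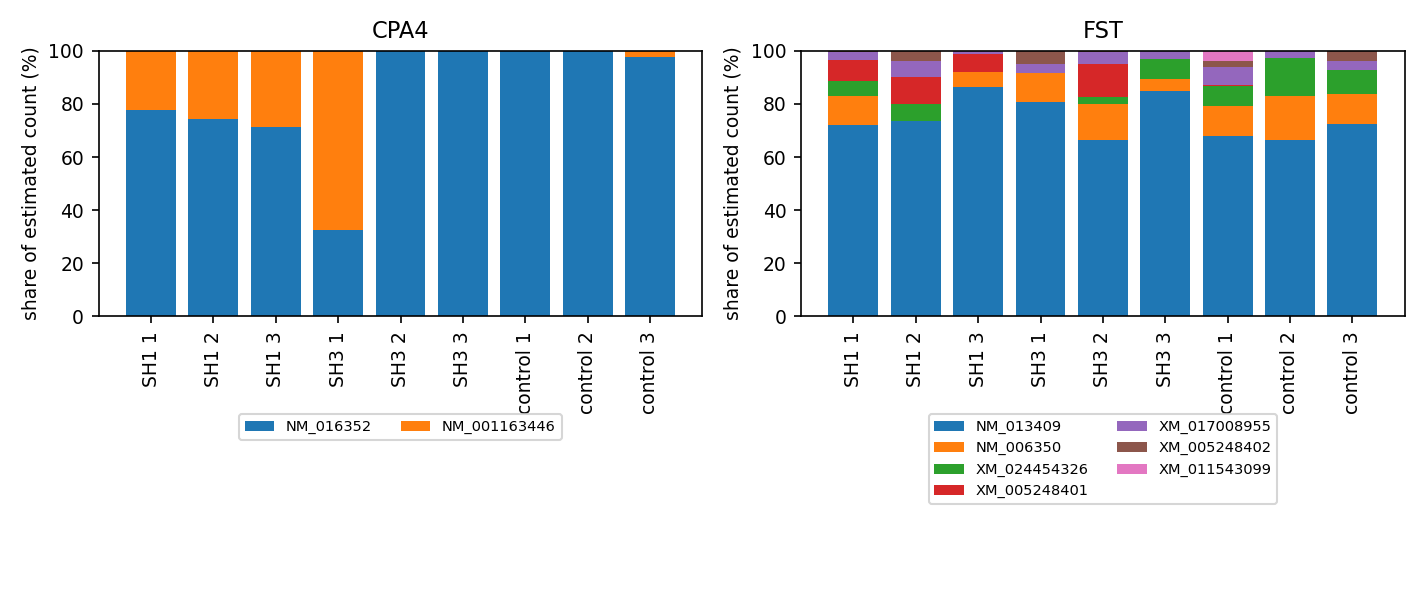
Share of each deposited transcript in the summed estimated count of CPA4 (left) and FST (right), in percent, for each library of SH1, SH3 and control. NM_016352 makes up 32.7% to 100% of CPA4, with its lowest share in SH3 1, and NM_013409 makes up 66.5% to 86.4% of FST.

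Enzymes and inhibitors of the carboxypeptidase family formed a list of 26 genes, with 5 besides CPA4 in the table and 4 of them tested. None passed the threshold in any comparison by the edgeR test, and 1 gene in SH1, 2 in SH3 and 2 in the average had an unadjusted p under 0.05. Over all sums, 11.5% in SH1, 8.39% in SH3, 10.2% in the average and 10.8% between the knockdown groups had one. The DESeq2 Wald test called 1 gene in each comparison with control and none between the knockdown groups. The list's median log2 fold change was 0.53 in SH1, 0.52 in SH3 and 0.48 in the average, against -0.03, -0.03 and -0.07 over all sums. LXN encodes latexin, the protein inhibitor of mammalian A-type carboxypeptidases, and was at 7.27, 7.42 and 6.82 FPKM in SH1, 9.57, 9.31 and 8.65 FPKM in SH3 and 3.36, 4.08 and 4.36 FPKM in control libraries. All 6 knockdown libraries lay above all controls, as in 4.08% of all sums. Its log2 fold change was 0.70 ± 0.28 in SH1 (adjusted p = 0.402), 1.13 ± 0.28 in SH3 (0.225) and 0.92 ± 0.25 in the average (0.218, edgeR), and DESeq2 gave adjusted p-values of 0.0196 in SH1 and 2.04e-05 in SH3. AGBL5, a tubulin deglutamylase, averaged 3.27 ± 0.77 FPKM in SH1, 4.87 ± 1.12 FPKM in SH3 and 2.35 ± 0.65 FPKM in control cells, with an adjusted p of 0.485 in the average. CPM, AGTPBP1 and CPZ averaged 1.05 FPKM or less in every group, and CPZ did not pass the filter.

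Ligands, antagonists, receptors and SMADs of activin, BMP and TGF-beta signalling formed a list of 60 genes, with 23 besides FST in the table and 22 tested. The edgeR test called 1 gene lower and none higher in SH1 and in the average, and none in SH3 or between the knockdown groups, with 2 genes at an unadjusted p under 0.05 in each of the 4 comparisons. Lower calls made up 1.08% of all sums in SH1 and 0.485% in the average. The DESeq2 Wald test called 2 in SH1, 1 in SH3, 2 in the average and none between the knockdown groups. The median log2 fold change was -0.18 in SH1, -0.29 in SH3 and -0.33 in the average, beside the medians of all sums given above. The gene called was BMPER, a secreted binder of bone morphogenetic proteins. It was at 0.67, 0.97 and 0.89 FPKM in SH1, 0.89, 1.13 and 0.70 FPKM in SH3 and 3.56, 2.66 and 2.43 FPKM in control libraries, with no overlap between knockdown and control. Its log2 fold change was -1.97 ± 0.37 in SH1 (adjusted p = 0.0405), -1.75 ± 0.37 in SH3 (0.143) and -1.86 ± 0.30 in the average (0.0306, edgeR). Leaving out any 1 of the 9 libraries ended the call in SH1 and in the average.

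No other member of that list passed the threshold by edgeR. Among the antagonist's ligands, GDF11 averaged 3.03 ± 2.73 FPKM in SH1, 1.88 ± 0.41 FPKM in SH3 and 3.97 ± 1.33 FPKM in control cells. The type I receptor gene ACVR1 averaged 2.39 ± 1.48 FPKM in SH1, 1.91 ± 0.94 FPKM in SH3 and 0.70 ± 0.66 FPKM in control cells, and the activin receptor gene ACVR2A averaged 1.25 FPKM in SH1, 1.20 FPKM in SH3 and 1.43 FPKM in control cells. SMAD3, which carries activin signals to the nucleus, ranged from 0.40 to 2.26 FPKM in SH1, 0.58 to 6.43 FPKM in SH3 and 0 to 7.77 FPKM in control libraries, so its direction rests on single libraries. SMAD5, of the BMP branch, averaged 2.83 ± 0.77 FPKM in SH1, 0.92 ± 0.61 FPKM in SH3 and 2.55 ± 1.21 FPKM in control cells. SMAD2 and SKIL, a repressor of SMAD activity, had log2 fold changes of 0.12 and 0.16 in the average. The activin subunit genes INHBA and INHBB and the follistatin-like antagonist gene FSTL3 were not analysed here.

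**Figure D4:**
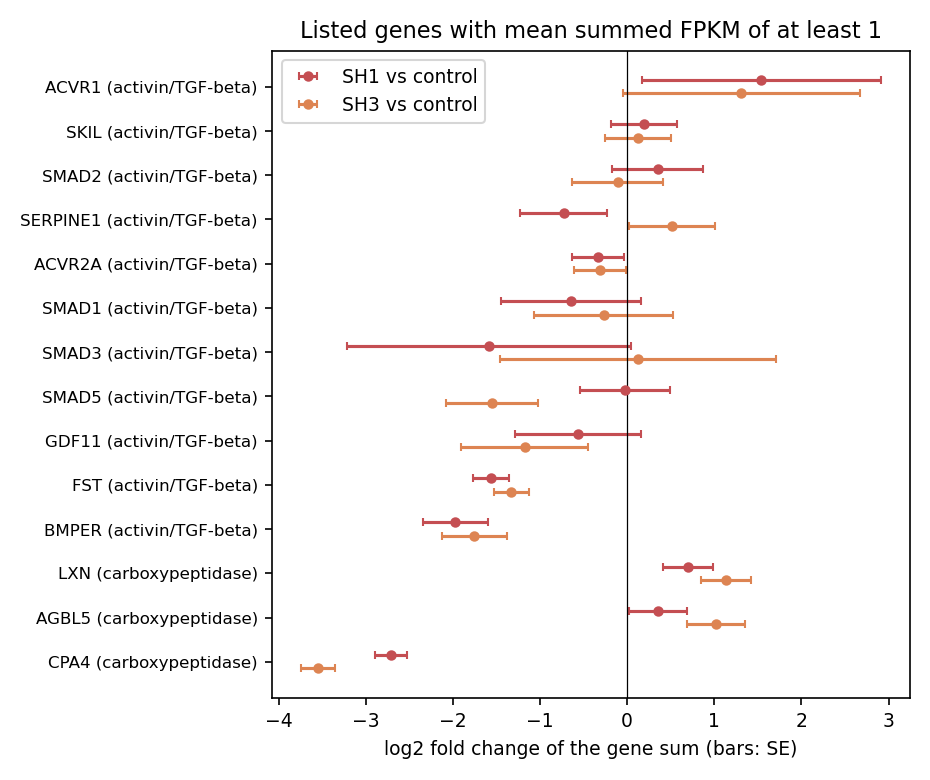
Log2 fold change of the gene sum with SE (bars) for SH1 against control and SH3 against control, for listed genes of both families with a mean of at least 1 FPKM. CPA4, FST and BMPER lie below 0 in both comparisons and LXN (0.70 and 1.13) above it.

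Genes beside the members in the genome were mostly not called. A list of 16 genes around CPA4, CPA4 included, had 6 others in the table. None of the 6 was past the threshold by edgeR in any comparison. Of these, 2 in SH1, 1 in SH3, 0 in the average and 3 between the knockdown groups had an unadjusted p under 0.05, and DESeq2 called 1 between the knockdown groups and none against control. UBE2H, a ubiquitin-conjugating enzyme, averaged 28.9 ± 2.75 FPKM in SH1, 27.3 ± 1.74 FPKM in SH3 and 24.7 ± 3.25 FPKM in control cells. PODXL, a podocyte sialomucin, averaged 4.19 ± 1.01 FPKM in SH1, 8.83 ± 2.06 FPKM in SH3 and 6.33 ± 1.61 FPKM in control cells.

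A list of 19 genes around FST, FST included, had 6 others in the table. Among these 6, edgeR called 1, ESM1, in SH1 (2.14% of all sums called) and in SH3 against SH1 (1.36%). It called none in SH3 or the average. An unadjusted p under 0.05 was given to 2 of the 6 in SH1 and to 1 in each of the other 3 comparisons, and DESeq2 called 1 in SH1, 1 in SH3, 1 between the knockdown groups and none in the average. ESM1 encodes the secreted proteoglycan endocan and was at 11.5, 11.8 and 9.10 FPKM in SH1, 48.3, 42.1 and 40.4 FPKM in SH3 and 29.04, 23.3 and 19.2 FPKM in control libraries. It fell in SH1 (-1.30 ± 0.18, adjusted p = 0.012) and was higher in SH3 than in SH1 (2.10 ± 0.19, adjusted p = 0.00196), while its value in SH3 against control was 0.80 ± 0.18 (adjusted p = 0.178, edgeR, and 0.00225 with DESeq2). The call in SH1 was lost in 3 of 20 alternatives, without SH1 1 (adjusted p = 0.0551), without SH1 1 and control 1 (0.0827) and with only the groups compared (0.0852, all edgeR), and that between the knockdown groups was kept in all 20. The 3 groups of ESM1 did not overlap, and SH3 lay on the other side of the controls from SH1, unlike FST. How many of all sums show that order was not counted, so nothing is read from it. GPX8, a peroxidase of the endoplasmic reticulum, and DHX29, a helicase of translation initiation, had log2 fold changes of -0.97 and 0.94 in the average and were not called.

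The genes whose levels ran most alike were ranked by Pearson correlation of log2(summed FPKM + 1) over the 9 libraries among 3905 genes with a mean of at least 1 FPKM. The libraries fall into knockdown and control, so a likeness here can be a shared difference between those groups, and it carries no test. For CPA4 the first 5 were MPRIP (r = 0.95), GRIP1 (0.94), VCAN (0.94), HNRNPH1 (0.93) and METTL26 (0.93), and FST was in place 8. For FST they were BMPER (0.95), VCAN (0.95), RGS4 (0.94), NR5A2 (0.94) and B3GLCT (0.93), and CPA4 was in place 9. Within the 6 knockdown libraries alone, CPA4 and FST had r = -0.29 and Spearman's rho = -0.14.

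VCAN, which encodes the matrix proteoglycan versican, was on both lists. It was at 8.86, 8.89 and 7.94 FPKM in SH1, 9.87, 7.99 and 10.2 FPKM in SH3 and 21.3, 17.7 and 20.6 FPKM in control libraries, with close means in the knockdown groups, as in FST. MPRIP, a partner of myosin phosphatase, was at 24.8, 26.7 and 26.6 FPKM in SH1, 20.9, 21.0 and 21.0 FPKM in SH3 and 32.4, 32.4 and 33.35 FPKM in control libraries, and shared the order of CPA4 over a much smaller range. RGS4, a regulator of G protein signalling, stood at 1.03 ± 0.27 FPKM in SH1, 2.48 ± 0.12 FPKM in SH3 and 7.63 ± 1.19 FPKM in control cells, with SH1 the lower of the knockdown groups, the reverse of CPA4.

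**Figure D5:**
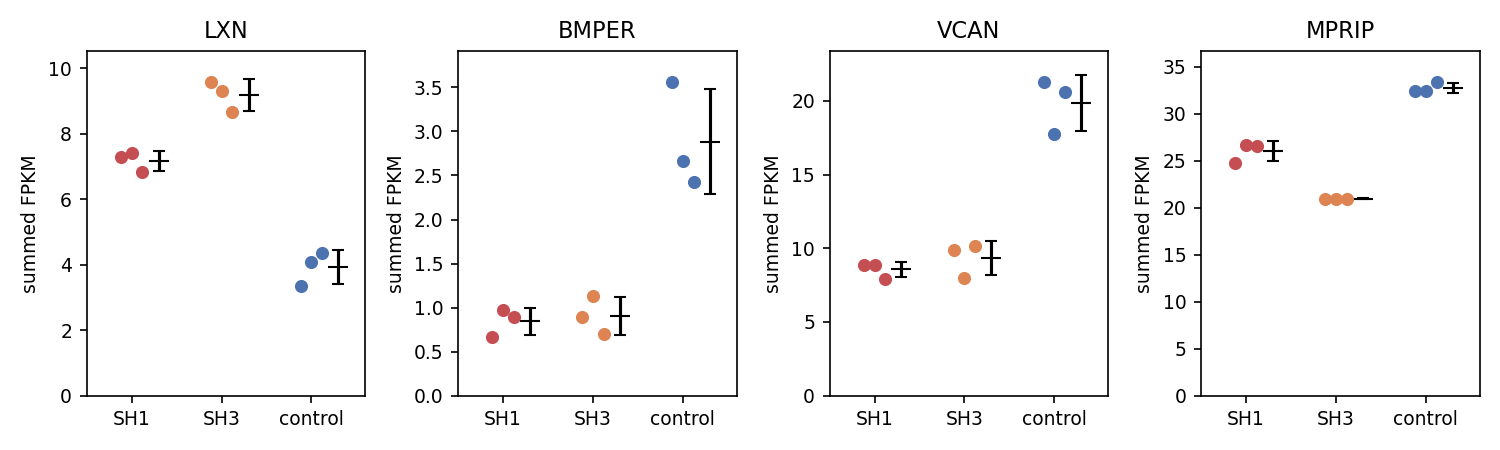
Summed FPKM of LXN, BMPER, VCAN and MPRIP in each library of SH1, SH3 and control, with points for libraries and bars for mean ± SD (n = 3). LXN is higher in all 6 knockdown libraries (6.82 to 9.57 FPKM) than in controls (3.36 to 4.36 FPKM), and the other 3 genes are lower.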

How the data were processed

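Per the file headers, the authors deposited an estimated count, an FPKM, a TPM and a normalized read count (a linear signal) for each transcript and library. Libraries were grouped by title, and 0 value columns were left without a sample. The submitters' processing notes name the mouse build mm10, whereas 99.9% of the deposited gene numbers are human in RefSeq GRCh38.p14, so the values were read as human. The aligner and counter are not given in the sources used here.

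The deposited FPKM describes levels and the TPM the share of a library. Estimated counts, 65.1% of them not whole, were rounded and tested per transcript and per gene sum by edgeR's quasi-likelihood method (version 4.0.16 under R 4.3.3) in 1 fit of all 9 libraries, with TMM scaling, filterByExpr (minimum count 10), robust dispersion and Benjamini-Hochberg adjustment over all features at 0.05. The deposited normalized read counts gave the authors' factors, used in 1 alternative. DESeq2 1.42.0, limma 3.58.1 on log2(FPKM + 1) and log2(FPKM + 0.1), other scalings and filters, a replicate block and leaving out libraries were the others. The edgeR and DESeq2 steps were run on simulated gene sums with known changes, and only the edgeR result was checked against them. The simulation had no transcripts and no selection like that of the table, so it does not bear on the calls above.

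Members, gene lists and tests were chosen with earlier results of these data known. Named genes are the members, list genes past the threshold or otherwise up to 3 per list and direction averaging 1 FPKM or more, and the 5 genes most like each member. The marker genes, and ACVR2A, CPM, AGTPBP1 and CPZ, were named in addition, the last 4 after their values were seen. Chi-square per degree of freedom between replicates was 39.3 to 53.6, so none was a repeat deposit. Counting errors cover counting alone.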

Additional observations from a re-analysis of the deposited data

How the results depend on the processing

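CPA4 kept its direction in every comparison under all alternatives, and FST did in its comparisons with control and in SH3 against SH1. The CPA4 log2 fold change in SH1 was -2.61 with the authors' factors (an alternative chosen after seeing the data), -2.18 with limma on log2(FPKM + 1), -2.49 on log2(FPKM + 0.1), and -2.78 to -2.63 when 1 library was left out. In SH3 limma gave -2.81 and -3.38, and in the average -2.49 and -2.93. A log2 of FPKM plus a constant understates the change of low levels, but its part in the difference between limma and edgeR was not tested. CPA4 in SH3 against SH1 was -0.85 and past the threshold with DESeq2, and the cause was not tested. The fit of only the groups compared gives no value for the average.

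Counts of transcripts called in SH1, SH3, the average and SH3 against SH1 (23, 5, 21 and 17) were 492, 358, 459 and 406 with DESeq2. With limma they were 39, 15 and 41 in SH1, SH3 and SH3 against SH1 on log2(FPKM + 1), and 81, 17, 45 and 46 on log2(FPKM + 0.1). They were 3, 0 and 4 with only the groups compared, 13, 1, 2 and 5 without control 1 and SH1 1, and 3 in SH3 with the stricter filter. Leaving out 1 library gave 11 to 20, 1 to 12, 5 to 21 and 1 to 23. Gene sums called (137, 26, 71 and 87) were 461, 258, 360 and 415 with DESeq2. In SH3 and SH3 against SH1 limma gave 56 and 137 on log2(FPKM + 1) and 54 and 131 on log2(FPKM + 0.1). They were 47, 8 and 54 with only the groups compared, 57, 7, 21 and 56 without control 1 and SH1 1, and 59 to 110, 11 to 25, 27 to 59 and 32 to 92 with 1 library left out. Fewer samples enter the last 3 settings, and the cause of the other changes was not tested. With the authors' factors 66.7% of the sums called in the average were higher, against 56.3%.

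Replicate numbers showed no sign of pairing the samples. Deviations of same-numbered libraries correlated at -0.11 to 0.06, and those of other-numbered libraries at -0.085 to 0.129. With 3 libraries per group this cannot exclude a pairing. With the replicate block 15, 2, 7 and 5 transcripts and 88, 12, 39 and 39 sums were called, and the activin and TGF-beta list had 0 called in SH1 and in the average.

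The carboxypeptidase list (0 called) had 1 called in SH1 with DESeq2 and with limma on log2(FPKM + 0.1), and 1 in SH3 and in the average with DESeq2 and both limma fits. The activin and TGF-beta list had 2 called with DESeq2 and 0 with limma on log2(FPKM + 0.1), in SH1 and in the average, 1 in SH3 with DESeq2, 0 in SH1 with only the groups compared, 0 in both without control 1 and SH1 1, and 0 to 0 with 1 library left out. BMPER then had adjusted p-values of 0.0697 to 0.143 in SH1 and 0.0706 to 0.115 in the average (edgeR). SMAD3 in the average (-0.73) reversed to 0.43 with limma on log2(FPKM + 0.1) and 0.42 without control 1 and SH1 1, ran from -1.31 to 0.37 (without control 1) with 1 library left out, and PODXL (-0.17) to 0.098 without that pair. The cause was not tested.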
